A study of Rattus norvegicus with 4 samples.

Results

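The slit diaphragm genes examined here are Nphs1, Cd2ap, Kirrel1, Tjp1, Magi2, Fat1, Trpc6 and Plce1, chosen by symbol as genes for proteins of the slit diaphragm and its junction scaffolds. All 8 were found in the deposited table, as 8 of 13261 usable genes, and each of them entered every test. The samples were 4 glomerular preparations, taken here as 1 animal each, of male Wistar rats weighing about 150 to 175 g that had received Adriamycin (ADR, doxorubicin) by intravenous injection. ADR is an anthracycline that injures podocytes in rodents and is used to model nephrotic syndrome. The labels give a single group with no agonist and no untreated animals, list harvest on day 11 or 21 without saying which applied to each rat, and give no age. There is therefore no contrast between conditions, and replicates 1 to 4 are names in accession order.

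Podocytes wrap the glomerular capillaries with interlocking foot processes, and the slit diaphragm is the cell junction that spans the gaps between them and takes part in holding back plasma protein. Nephrin, the product of Nphs1, and the nephrin-like protein of Kirrel1 reach across the gap, and their cytoplasmic tails bind scaffold proteins that join the junction to the actin cytoskeleton and to signalling enzymes. Loss of nephrin, CD2AP, PLCE1, MAGI2 or FAT1 function, and gain of TRPC6 function, are known causes of inherited podocyte disease in humans.

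Replicates 1 to 4 carried 13566962, 16207027, 15348629 and 15244063 reads over the usable genes, so 1 read was worth 0.0617 to 0.0737 CPM (reads scaled to the same total in each animal). Of the genes used, 69.5% differed between the 4 animals beyond counting error (chi-square test on reads, Benjamini-Hochberg adjusted p under 0.05). The median SD of log2 CPM between animals was 0.18 over all genes, with quartiles of 0.11 and 0.29. In the check of tissue identity, all 18 genes of a podocyte marker list without the 8 slit diaphragm genes were measured, the lowest with at least 128 reads in each animal, as were 12 of the 12 proximal tubule and 9 of the 10 distal nephron genes listed. CPM are not divided by transcript length and no transcript lengths were used here, so levels are not ranked between genes.

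The 8 genes followed nearly the same order across the animals. In 7 of them replicate 1 was highest, followed by replicates 4, 3 and 2. The exception was Trpc6, where replicate 4 stood above replicate 1. Over all genes, 9.44% showed the order 1, 4, 3, 2. Replicate 2 was the lowest animal in 8 of 8 genes, against 31.5% of all genes. Summed over the 8 genes, the level was 4649, 2219, 3172 and 4077 CPM in replicates 1 to 4, averaging 3529 ± 1064 CPM (SD, n = 4). Replicate 1 thus held 2.10 times the summed level of replicate 2. In bulk glomeruli, fewer podocytes and less of these transcripts per podocyte cannot be told apart.

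**Figure D1:**
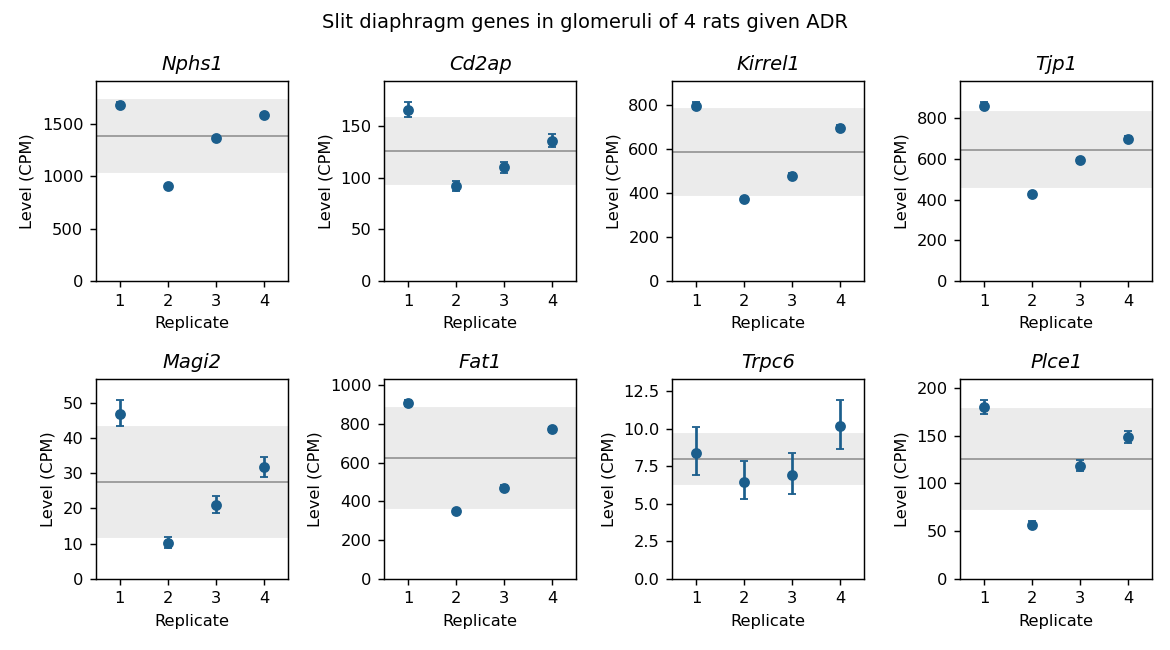
Level of each slit diaphragm gene in CPM (vertical axis, from 0, a separate scale for each gene) in replicates 1 to 4 (horizontal axis). Points are single animals with 95% Poisson intervals for counting error, the line is the mean and the band is the mean ± 1 SD over the 4 animals; replicate 2 is the lowest point in all 8 panels, and replicate 1 is the highest in each panel but that of Trpc6.

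Because the 8 genes moved together, the 250 bases before their annotated starts were read from RefSeq promoters (build GRCr8, which is not the build of the deposited table, so no position is compared with it). The table held 7 of the 8 genes; Plce1 was not among them. Windows of 3 genes are printed to show the motif matches beside the sequence. Nphs1 is the defining gene of the junction. Cd2ap belongs to the pair of genes that kept the most even ratio over all 4 animals. Magi2 is the gene that differed most between animals. Capitals mark the matches. The Nphs1 window is chr1:94848011-94848260 on the plus strand, that of Cd2ap is chr9:25583725-25583974 on the plus strand, and that of Magi2 is chr4:16762136-16762385 on the minus strand.
Nphs1: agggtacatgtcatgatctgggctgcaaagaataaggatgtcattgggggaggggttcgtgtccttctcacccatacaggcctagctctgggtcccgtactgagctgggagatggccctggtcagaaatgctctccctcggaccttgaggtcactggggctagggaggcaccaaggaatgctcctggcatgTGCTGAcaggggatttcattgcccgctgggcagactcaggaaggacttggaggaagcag
Cd2ap: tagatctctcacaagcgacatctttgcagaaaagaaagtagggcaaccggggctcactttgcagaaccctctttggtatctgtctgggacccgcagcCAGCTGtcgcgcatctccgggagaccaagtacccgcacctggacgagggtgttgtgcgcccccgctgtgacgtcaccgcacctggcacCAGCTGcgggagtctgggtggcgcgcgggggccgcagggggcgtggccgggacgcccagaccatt
Magi2: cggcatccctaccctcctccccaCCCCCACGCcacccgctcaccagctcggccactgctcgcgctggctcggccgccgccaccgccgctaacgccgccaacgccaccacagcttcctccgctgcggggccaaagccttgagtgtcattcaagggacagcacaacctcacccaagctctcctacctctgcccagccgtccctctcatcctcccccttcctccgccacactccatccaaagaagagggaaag

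A set of 5 motifs was searched on both strands, chosen for families of podocyte transcription factors, and their matches did not overlap. The MAF half-site TGCTGA was found in Nphs1, from 59 to 54 bases before the start, and in no other of the 7 windows; 15.1% of all 33469 windows in the table held it. The palindromic E-box CAGCTG was found 2 times in Cd2ap, from 153 to 148 and from 65 to 60 bases before the start, and 1 time in Fat1, against 12.0% of all windows. The core GNGTGGGNG, shared by WT1 and EGR proteins, was found on the reverse strand of Magi2, from 227 to 219 bases before the start, against 11.3% of all windows. The homeodomain core TAATTA and the forkhead core GTAAACA had 0 matches in the 7 windows, against 4.86% and 3.21% of all windows. No motif of the 5 was held by more than 2 of the 7 genes. A match is a string of letters and not a measured binding site.

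Among the adhesion proteins that span the slit, Nphs1 encodes nephrin, an immunoglobulin-family protein made in the kidney almost only by podocytes. Its level (gene ENSRNOG00000020873) was 1683, 904, 1370.3 and 1584 CPM in replicates 1 to 4, with a mean of 1385 ± 347 CPM (SD, n = 4). Replicates 1, 3 and 4 lay nearer to each other, and the widest gap between neighbouring animals was that above replicate 2. The SD of log2 CPM was 0.40, and without replicate 2 it was 0.15.

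Kirrel1 (ENSRNOG00000016408) encodes NEPH1, which binds nephrin across the slit. It stood at 797, 375, 479.8 and 696 CPM in replicates 1 to 4, with a mean of 587 ± 194 CPM (SD, n = 4). Here replicates 1 and 4 were high and replicates 2 and 3 low. The ratio of Nphs1 to Kirrel1 was highest in replicate 3, with a log2 difference of 1.51, against 1.08, 1.27 and 1.19 in replicates 1, 2 and 4. Kirrel2, a paralog that also binds nephrin, was highest in replicate 4 and lowest in replicate 2, with an SD of 0.26 on the log2 scale, and ordered the animals as Kirrel1 did in 4 of 6 pairs of animals.

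Fat1 (ENSRNOG00000030954), a very large atypical cadherin of the slit, had 907, 348, 472 and 772 CPM in replicates 1 to 4, with a mean of 625 ± 259 CPM (SD, n = 4). Its pattern was that of Kirrel1 with a wider swing: replicates 1 and 4 were high, replicates 2 and 3 low, and replicate 1 was 2.60 times replicate 2.

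Of the scaffolds beneath the junction, Tjp1 (ENSRNOG00000011077) encodes ZO-1, which is also present at tight junctions of epithelial and endothelial cells. It had 860.3, 426, 593 and 699 CPM in replicates 1 to 4, with a mean of 645 ± 182 CPM (SD, n = 4). The animals were spaced fairly evenly, with replicate 1 at 2.02 times replicate 2. The SD on the log2 scale was 0.43, and 0.27 without replicate 2. The paralog Tjp3, named after its values were seen, was lowest in replicate 1, with log2 CPM of 1.84, 3.02, 2.87 and 2.62, and ordered 0 of 6 pairs as Tjp1 did.

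Cd2ap (ENSRNOG00000011987) encodes an adaptor that binds nephrin and actin regulators and is made in many cell types. Its level was 166, 92.1, 110.2 and 136 CPM in replicates 1 to 4, with a mean of 126 ± 32.1 CPM (SD, n = 4). The log2 CPM were 7.37, 6.53, 6.78 and 7.09 in replicates 1 to 4. On that scale the animals were spaced evenly, with a 1.80-fold difference between the ends.

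Magi2 (ENSRNOG00000013962) encodes a membrane-associated scaffold with several PDZ domains that binds nephrin. Its level was 46.9, 10.2, 21.0 and 31.7 CPM in replicates 1 to 4, with a mean of 27.5 ± 15.7 CPM (SD, n = 4). It differed more between the animals than any other of the 8 genes, with replicate 1 at 4.60 times replicate 2 and an SD of 0.94 on the log2 scale, or 0.58 without replicate 2. These values rest on 637, 165, 323 and 483 reads. The paralog Magi1 had log2 CPM of 4.94, 5.11, 5.06 and 4.64 and was highest in replicate 2, so the log2 ratio of Magi2 to Magi1 had an SD of 1.08, above the SD of either gene.

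Of the signalling members, Plce1 (ENSRNOG00000014276) encodes phospholipase C epsilon, an enzyme that yields calcium-mobilising second messengers. It had 180.1, 56.9, 119 and 148 CPM in replicates 1 to 4, with a mean of 126 ± 52.5 CPM (SD, n = 4). As for Nphs1, replicate 2 stood apart below the others. The SD on the log2 scale was 0.73, and 0.30 without replicate 2.

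Trpc6 (ENSRNOG00000006324) encodes a calcium-permeable cation channel found at the slit. It had 8.40, 6.48, 6.91 and 10.2 CPM in replicates 1 to 4, with a mean of 7.99 ± 1.67 CPM (SD, n = 4). These levels come from 114, 105, 106 and 155 reads. The SD on the log2 scale was 0.29, and 0.20 without replicate 4. The 95% Poisson interval of replicate 1, 6.93 to 10.1 CPM, overlapped those of the other 3 animals, so its place in the order was not resolved at this depth. Only 2 of the 6 pairs of animals had intervals that did not overlap, those of replicate 4 with replicates 2 and 3. In each of the other 7 genes all 6 pairs were apart, as they were in 3.66% of all genes and in 6.62% of the 6979 genes with a mean of at least 402 reads, that of Magi2, the lowest mean of the 7. The intervals cover counting error only.

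The spread was next tested across all 13261 genes. All 8 genes differed between animals beyond counting error, with an adjusted p of 0.00189 for Trpc6 and of 2.07e-77 or less for the other 7 (chi-square test of the reads, Benjamini-Hochberg over all genes), where the share over all genes was 69.5%. Without replicate 4, Trpc6 no longer passed, with an adjusted p of 0.170. Variation in excess of that of similarly abundant genes was tested against limma's abundance trend. This test called 0 of the 8 genes and 0% of all genes, and the lowest adjusted p among the 8 was 0.913. At an unadjusted p under 0.05 it passed 4 of the 8, where 722 genes or 5.44% passed over the whole table. These were Magi2, whose SD was 5.40 times the SD of the trend at its level, Plce1 at 4.99 times, Fat1 at 3.50 times and Kirrel1 at 2.75 times. The same ratio was 2.52 for Cd2ap, 2.31 for Tjp1, 1.74 for Nphs1 and 1.22 for Trpc6, none of which passed. Leaving out replicate 2 brought the 4 genes to 2, Magi2 and Fat1.

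The SD of log2 CPM ranged from 0.29 for Trpc6 to 0.94 for Magi2 and had a median of 0.46, against 0.18 over all genes. It was above that median of all genes in 8 of 8. Trpc6 stood at percentile 75.9 of the SD over all genes, Cd2ap at 84.9, Nphs1 at 88.2, Tjp1 at 89.7, Kirrel1 at 93.6, Fat1 at 97.3, Plce1 at 98.4 and Magi2 at 99.3. Without replicate 2 the median over the 8 genes was 0.30, and that over all genes 0.17.

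**Figure D2:**
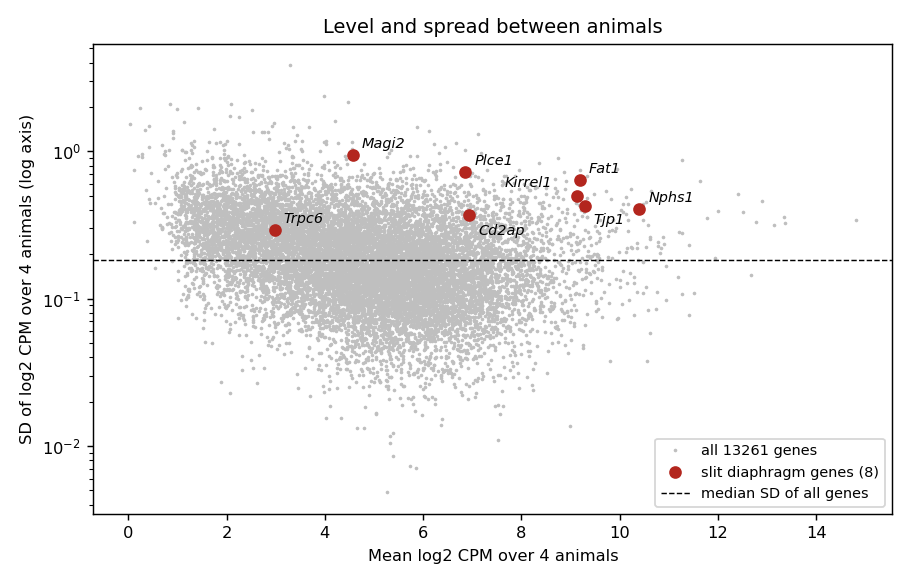
SD of log2 CPM over the 4 animals (vertical axis, logarithmic) against mean log2 CPM (horizontal axis) for all 13261 genes in grey and the 8 slit diaphragm genes in red, with the median SD of all genes, 0.18, as a dashed line. All 8 red points lie above the line, from Trpc6 at 0.29 to Magi2 at 0.94.

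How closely the genes moved together was measured by the SD over animals of the log2 ratio between them, which does not depend on how libraries are scaled and is 0 for genes in constant ratio. Over the 28 pairs of slit diaphragm genes it had a median of 0.30, from 0.09 to 0.75. The same measure between these genes and the 11265 others with a mean of at least 100 reads had a median of 0.53. In 19 of the 28 pairs the ratio varied less than either gene alone. The same share over pairs of other genes was not computed. With 4 animals no correlation across samples is given. Each pair of genes was also compared over the 6 pairs of animals, and the order was the same in 161 of 168 comparisons, or 95.8%. This restates the order given above, since the 7 genes that share it agree in full in all 21 pairs among them. No such share was computed for pairs of other genes. All 7 departures involved Trpc6, and they concerned replicates 1 and 4, whose Trpc6 intervals overlapped.

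The 3 most even ratios of the 28 were those of Tjp1 with Cd2ap, Nphs1 and Kirrel1. Cd2ap and Tjp1 kept a log2 difference of -2.37, -2.21, -2.43 and -2.36 in replicates 1 to 4, with an SD of 0.09. The SD was 0.11 for Nphs1 with Tjp1, 0.13 for Kirrel1 with Tjp1 and 0.14 for Kirrel1 with Fat1. That order changed whichever replicate was left out. Without replicate 1 the most even pair was Nphs1 with Tjp1, at an SD of 0.06. Without replicate 3 or 4 it was Kirrel1 with Tjp1, at 0.09 and 0.10. Without replicate 2 it was Cd2ap with Plce1, at an SD of 0.01, before Cd2ap with Tjp1 at 0.04 and Tjp1 with Plce1 at 0.05. Nphs1 with Tjp1 and Kirrel1 with Tjp1 then stood at 0.13 and 0.15. With all 4 animals, Magi2 kept its closest ratio with Plce1, at an SD of 0.26, and its ratio to Nphs1 moved with an SD of 0.55. Without replicate 2 its closest ratio was with Fat1, at 0.17, and that with Plce1 was 0.28. Nphs1 exceeded Magi2 by 5.16 log2 units in replicate 1, where both were highest, and by 6.47 in replicate 2, where both were lowest. The widest ratio, 0.75, was that of Magi2 to Trpc6.

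**Figure D3:**
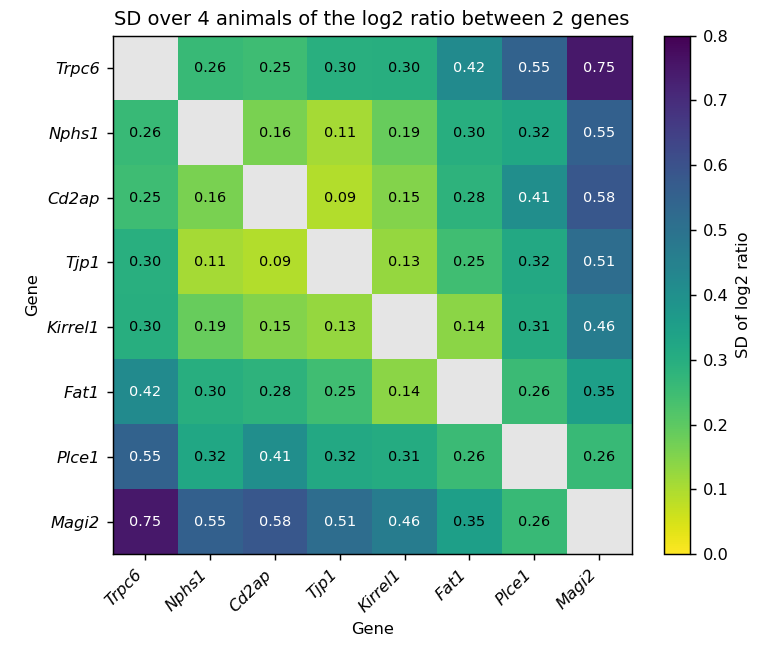
SD over 4 animals of the log2 ratio between each 2 of the 8 slit diaphragm genes (both axes list the genes; colour and number give the SD, the diagonal is empty). Nphs1, Cd2ap, Tjp1 and Kirrel1 form a block with values of 0.09 to 0.19, and Magi2 has values of 0.26 to 0.75 with the others.

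The genes shared a direction and differed in size. Averaged over the 8 genes, the log2 deviation from each gene's own mean was 0.51, -0.67, -0.13 and 0.30 in replicates 1 to 4, a range of 1.18, and this mean profile held 83.1% of the summed squared deviations of the 8 genes. Without replicate 2 the range was 0.64. Scaled to the profile by least squares, a slope of 1 being the average, Magi2 had a slope of 1.79 and Plce1 of 1.36, with Fat1 next. Kirrel1 followed at 0.94, Tjp1 at 0.81, Nphs1 at 0.75, Cd2ap at 0.69 and Trpc6 at 0.45. Without replicate 2 the slope was 1.73 in Magi2, 1.49 in Fat1, 0.91 in Plce1 and 0.46 in Nphs1, so that Fat1 and Kirrel1 (1.16) stood above Plce1 and Nphs1 was the lowest of the 8. What was left after the slope had an SD of 0.06 to 0.10 in 6 of the genes. It was 0.15 in Plce1, which stood 0.21 above its scaled profile in replicate 3, and 0.17 in Trpc6, which stood 0.23 above its own in replicate 4.

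To see how particular this agreement was, each gene was set against the mean profile of the other 7 by the root mean square difference over the 4 animals. For Kirrel1 it was 0.08, and 27 of 11265 genes outside the group lay nearer to that profile. For Tjp1 66 lay nearer, for Fat1 140 and for Nphs1 141. Cd2ap had 187, Plce1 620 and Trpc6 997. Magi2, with its wide swing, was no nearer to the others than the typical gene, at 0.42 against a median of 0.42. For each of the 8, at least 27 genes outside the group thus lay nearer.

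The 10 such genes nearest to the mean profile, with root mean square differences of 0.03 to 0.05, all ordered the animals 1, 4, 3, 2. They were Marveld2, Ptpro, Alpk3, Ptch1, Dtx4, Tdrd5, Sgip1, Prkca, Itgb5 and Itgav. Ptpro, a receptor tyrosine phosphatase of the podocyte surface, had log2 deviations of 0.49, -0.64, -0.17 and 0.33 in replicates 1 to 4. Marveld2, which encodes the junction protein tricellulin, had 0.49, -0.71, -0.10 and 0.32. It had a mean of 164 reads, so its rank was not resolved at this depth. Itgav and Itgb5 encode the subunits of an integrin that binds vitronectin.

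Taken gene by gene, the nearest pattern was never another slit diaphragm gene. Nphs1 kept its most even ratio with Anln, the gene for the actin-binding protein anillin, at an SD of 0.0093, followed by Otud1 and Notch3 at 0.03 each. Cd2ap was nearest to Edem3 (0.01), Kirrel1 to Fkbp14 (0.03) and Tjp1 to Lims1 (0.03), which encodes PINCH1, an adaptor at integrin adhesions. Fat1 was nearest to Arhgap28 (0.03) and then to Crb2 (0.04), which encodes a polarity protein of the podocyte junction. Magi2 was nearest to Npr3 (0.07), the natriuretic peptide clearance receptor, which is abundant in podocytes. Plce1 was nearest to Pard6g (0.03), which encodes a cell polarity protein, and Trpc6 to Trim68 (0.04). These SDs come from 4 animals and a large number of candidate genes, so they describe likeness in these samples only. Counting error was not taken off them. Anln stood at 4.52 log2 CPM, close to Magi2 at 4.57, whose level carried a counting error of 4.99%. An SD of 0.0093 is smaller than such an error, so ranks this close were not resolved at this depth.

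Other genes of the slit diaphragm complex were taken from a list of 37 partners, of which 34 were measured. All 34 differed between animals beyond counting error (69.5% over all genes), 0 passed limma's trend test after adjustment and 4 passed it unadjusted (5.44% over all genes). The list's median SD was 0.22, closer to the 0.18 of all genes than to the 0.46 of the 8 genes above. Replicate 2 was lowest in 23 of the 34 (31.5% of all genes) and 11 of them held the order 1, 4, 3, 2 (9.44% of all genes). Actn4, the gene for the podocyte actin crosslinker alpha-actinin-4, stood at 10.90 ± 0.23 log2 CPM (SD, n = 4), with replicate 1 highest and replicate 2 lowest. Crb2 had the largest SD, 0.66, with log2 CPM of 6.66, 5.19, 5.64 and 6.35. Mpp5, which encodes the Crumbs-binding scaffold PALS1, had 7.53, 6.51, 6.94 and 7.36 and an SD of 0.46. Cdh3, for P-cadherin, stood at 2.16 ± 0.33 log2 CPM and had its lowest value in replicate 1. Arhgdia had the smallest SD, 0.05.

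Of the catenin genes of that list, which link cadherins to the cytoskeleton in many cell types and are named here after their values were seen, Ctnnb1 had an SD of 0.11, Ctnnd1 of 0.09, Ctnna1 of 0.07 and Jup of 0.14. Of the nephrin signalling genes, the adaptor Nck2 had log2 CPM of 6.96, 6.42, 6.63 and 6.77 in the order 1, 4, 3, 2. Its paralog Nck1 had 5.67, 5.80, 5.82 and 5.51, with replicate 4 lowest. Fyn, the kinase that phosphorylates nephrin, had 7.54, 7.34, 7.69 and 7.70, and Grb2 varied with an SD of 0.08.

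The slit diaphragm genes were then placed beside marker lists for the cell types a glomerular preparation can hold. The 18 podocyte genes had mean log2 deviations of 0.43, -0.54, -0.10 and 0.21 in replicates 1 to 4, the same order as the slit diaphragm genes. In that list replicate 2 was lowest in 16 genes (31.5% of all genes) and the order 1, 4, 3, 2 was held by 14 (9.44% of all genes). Podxl, for the apical sialoprotein podocalyxin, stood at 11.20 ± 0.29 log2 CPM and Pla2r1, for a phospholipase A2 receptor, at 3.42 ± 0.18 (SD, n = 4). Npr3 had the largest SD, 0.98, and Lamb2, a basement membrane laminin, the smallest, 0.11. The transcription factor gene Wt1 had 7.95, 6.80, 7.46 and 7.63 log2 CPM, and Lmx1b 6.54, 5.04, 5.66 and 6.17. These genes, named after their values were seen, both held the order 1, 4, 3, 2. Pla2r1, at 3.24, 3.31, 3.66 and 3.47, and Lamb2, at 10.61, 10.75, 10.87 and 10.83, were instead lowest in replicate 1. Pla2r1 did not pass the chi-square test (adjusted p of 0.0582). Vegfa and Foxc2 were lowest in replicate 2 but held other orders.

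Relative to the mean of this podocyte list, Tjp1 moved with an SD of 0.03, Cd2ap with 0.09, Nphs1 with 0.10 and Kirrel1 with 0.11. Fat1 followed at 0.24, Trpc6 at 0.27, Plce1 at 0.33 and Magi2 at 0.52. Magi2 lay 0.55 above the podocyte mean profile in replicate 1 and 0.68 below it in replicate 2 (a difference of -0.68). Plce1 was 0.49 below it in replicate 2 (a difference of -0.49) and between 0.13 and 0.21 above it in the other animals. Trpc6 went the other way, with -0.33 in replicate 1 and 0.26 in replicate 2.

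**Figure D4:**
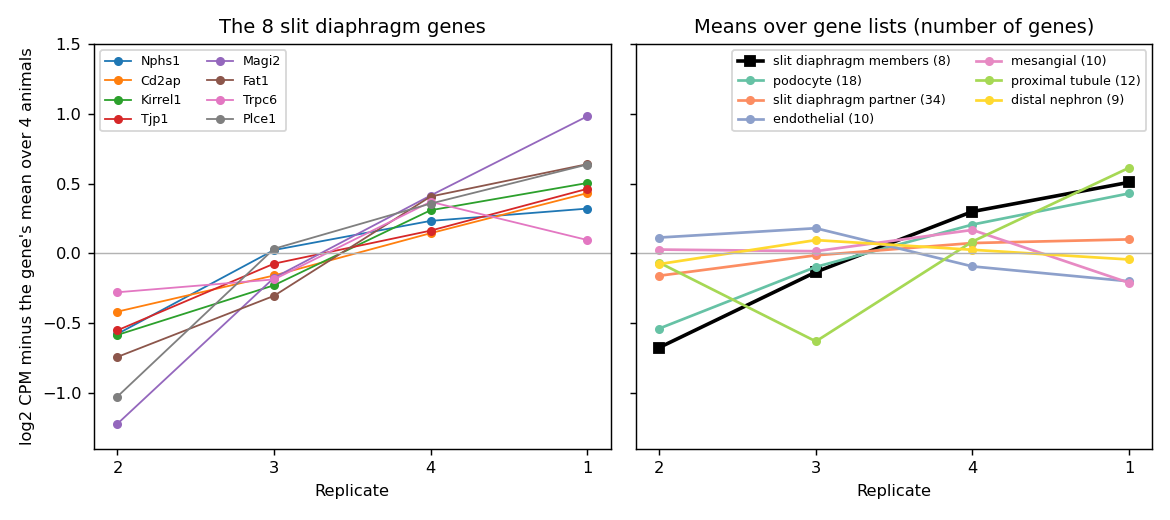
Log2 CPM minus the gene's own mean over 4 animals (vertical axis) in replicates 2, 3, 4 and 1 (horizontal axis, placed from the lowest to the highest mean of the 8 genes). The left panel shows single slit diaphragm genes and the right panel means over gene lists; the slit diaphragm and podocyte means run together from -0.67 and -0.54 to 0.51 and 0.43, and the proximal tubule mean is lowest in replicate 3.

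The means of the other cell type lists had other orders. The 10 endothelial genes measured of 11 had mean deviations of -0.20, 0.11, 0.18 and -0.09 in replicates 1 to 4, and their summed level was 7194, 8482, 9498 and 7899 CPM. The 10 mesangial genes had -0.21, 0.03, 0.02 and 0.17, with 2114 to 2697 CPM in sum, and went different ways. Itga8, Pdgfrb, Gata3 and Cspg4, or 4 of the 10, were lowest in replicate 2 as the slit diaphragm genes were (31.5% of all genes), whereas Des, Acta2, Tagln, Myl9 and Pdgfra were highest there. Itga8, for an integrin subunit of mesangial cells, had 8.60, 7.50, 8.21 and 8.78 log2 CPM. The 12 proximal tubule genes had 0.61, -0.07, -0.63 and 0.08, with 9132, 6380.3, 4321 and 6645 CPM in sum, so this list was highest in replicate 1, as the slit diaphragm genes were, and lowest in replicate 3. The 9 distal nephron genes measured of 10 had -0.04, -0.08, 0.10 and 0.03, with 661, 506, 613 and 575 CPM in sum, so their sum had the same highest and lowest animals as the slit diaphragm genes, replicates 1 and 2, while their mean deviation was lowest in replicate 2 and highest in replicate 3. The 9 parietal genes measured of 10 had -0.03, 0.20, -0.17 and 0.00275, with 605 to 766 CPM in sum. The 10 immune genes had -0.28, 0.10, 0.15 and 0.02, with 1170 to 1488 CPM in sum, and the 5 erythroid genes had -0.39, -0.12, 0.50 and 0.02, with 935 to 1713 CPM in sum. No measured marker of these lists was at 0 reads in any animal. The share of reads from mitochondrially encoded genes was 7.46%, 12.5%, 9.34% and 7.56% in replicates 1 to 4, so replicate 2, lowest in all 8 slit diaphragm genes, had the highest share. With these genes taken out of the totals the order of the animals was unchanged in each of the 8 genes and the range of the mean profile was 1.10. The part of other cell types in the order of the animals was not tested.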

How the data were processed

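Poly(A) RNA of sieved glomeruli was sequenced in 4 libraries, which the labels list as separate samples. Nothing says outright that each is another animal, so p-values measure only the spread between these samples, which may be technical. The authors deposited log2 values, 1 column per sample. Per the submitters' processing notes, HISAT2, Subread, featureCounts and limma were used with build Rnor_6.0; their roles, the strand setting and the filter on low genes are not given in the sources used here. From the values, each is log2 CPM with 0.5 reads added, and 2 raised to it gave whole reads for 100% of values within 0.01 reads. Of 13265 rows, 4 had displaced cells and were not used. The count of value columns without a sample was 0.

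Deposited log2 CPM were used as they stand. Counting error was tested by a chi-square index of dispersion on the reads (3 degrees of freedom), and excess variance by limma 3.58.1 (intercept, abundance trend), both adjusted by Benjamini-Hochberg over all genes and checked on simulated data. Members, lists and tests were chosen with earlier results of these data known. Genes were named by rule: all 8 members, the extremes of the partner and podocyte lists (those of the other lists are not printed), and the nearest patterns among genes with a mean of at least 100 reads; paralogs and further list genes were added after their values were seen. Some genes are not reported here. Alternatives were other scalings, pseudocounts of 1 and 0.1, a filter at 100 reads, a robust prior and leaving out each replicate. Levels per kilobase, planned for ranking genes, were not computed, since no transcript length was used.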

Additional observations from a re-analysis of the deposited data

Results flagged for a closer look

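Of 90 values examined, 3 had a single animal apart from the other 3 by the ratio of its gap to the whole range, at its 95% critical value, where chance gives about 4.5. The log2 ratio of Cd2ap to Plce1 was 0.70 in replicate 2 and -0.12, -0.10 and -0.13 in replicates 1, 3 and 4 (gap over range 0.975). The log2 ratio of Tjp1 to Plce1 was 2.90 in replicate 2 and 2.26, 2.32 and 2.24 in replicates 1, 3 and 4 (gap over range 0.870). Both ratios share Plce1, which was low in replicate 2. Cd24, a gene of the parietal list, was at 5.75 log2 CPM in replicate 1 and 5.98, 6.02 and 5.98 in replicates 2 to 4 (gap over range 0.851).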

How the results depend on the processing

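Of 218 recomputed values, 215 stayed within their criterion and 3 moved. By construction, 59 of the 215 had no room to move (mean levels under another scaling or without a replicate, and ratios between genes under another scaling), which leaves 156. Among these are the counts of genes passing limma's trend test, which were 0 in each setting. The smallest adjusted p of that test over all genes was 0.834, so these counts had little room to move and say little on stability. Numbers of genes had to stay within 1.5 times, levels within their SD over animals, and spreads, ranges and shares within the jackknife error that the values without a replicate themselves give, a wide yardstick. The 3 that moved all came without replicate 2: the range of the mean profile of the 8 genes, 0.64 against 1.18, and the SD of Nphs1 and of Plce1. With each replicate left out in turn, the range of the profile ran from 0.64 to 1.18. The number of the 8 genes beyond counting error was 7 without replicate 4 and 8 under the other alternatives run. The trend test of limma called 0 genes under each alternative at an adjusted p under 0.05; unadjusted, it passed 598 to 725 genes over all alternatives, and of the 8 it passed 2 without replicate 2, 3 with totals free of mitochondrial genes, 5 without replicate 3 and 4 otherwise. The share of comparisons in the same order was 95.8% under each scaling and pseudocount and ran from 91.7% to 100% without a replicate. Pseudocounts do not enter the test against counting error, and the filter does not enter the values of single genes, so neither gave a value there. The order of genes by level per kilobase was not run. No paired analysis was possible because there is a single group. Depth limited Trpc6, at 105 to 155 reads.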
